A study of Rattus norvegicus with 11 samples.

Results

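The genes examined here were 6 matrix metalloproteinases (MMPs), Mmp2, Mmp3, Mmp9, Mmp12, Mmp14 and Mmp19, and the 4 tissue inhibitors of metalloproteinases, Timp1, Timp2, Timp3 and Timp4. They were chosen by gene symbol, and all 10 were found among the 30560 genes of the deposited table and among the 15742 genes with enough reads to be tested. RNA of the striatum was sequenced from 11 adult male Sprague-Dawley rats, with 1 library per rat, and groups were read at day 3. Hemorrhage was produced by bacterial collagenase VII-S, an enzyme that digests vessel wall collagen, given into the right striatum. The 3 IC rats (common hemorrhage) received 0.2 U in 1.0 μL of saline, and the 3 IS rats (severe hemorrhage) received 0.6 U in 3.0 μL. The 3 IS-HA rats received the IS dose and had 150 μL of hematoma aspirated through a catheter at 6 h. The 2 Normal rats received neither collagenase nor aspiration, and no group was injected with saline alone, so the needle, the collagenase and the blood cannot be told apart in comparisons with Normal. Severity likewise cannot be told apart from the dose and volume of collagenase.

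MMPs are zinc-dependent proteases that cut collagens, laminins and other proteins of the extracellular matrix and the basement membrane, and the TIMPs bind to their active site and block it. In the brain, MMPs are best known for opening the basement membrane and tight junctions of vessels after stroke and for the later remodelling of the matrix. Most MMPs are made as inactive proenzymes, so RNA levels do not measure protease activity.

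The total count per library ran from 6701301 in IS-HA replicate 2 to 18817645 in IC replicate 3, so that 3 counts, taken as the floor of detection, stood at between 0.448 and 0.159 CPM (counts scaled to the total of a library). This floor covers counting error only. Among all rats, 2 libraries stood apart from their groups. Over all genes tested, IS-HA replicate 2 had a Pearson r of 0.908 to 0.916 with the other rats of its group and IS replicate 4 had 0.951 to 0.963, whereas all other pairs within a group had 0.975 to 0.983. The striatal neuron markers were present in every library and summed to 6301 to 6720 TPM (the share of transcripts in a library, corrected for gene length) in Normal, 2775 to 5496 in IC, 1353 to 3568 in IS and 1363 to 3026 in IS-HA. The 12 microglia and macrophage markers summed to 196 to 241 TPM in Normal, 1377 to 1988 in IC, 2067 to 3534 in IS and 1673 to 2589 in IS-HA. In IS, 10 of the 12 were higher than in Normal by edgeR at an adjusted p under 0.05, beside 24.8% of all genes tested. Tmem119 (log2 fold change -0.38, adjusted p = 0.277) and P2ry12 (0.47, adjusted p = 0.190) were not. In bulk tissue, fewer cells of a type and less RNA per cell cannot be told apart.

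Mmp3 and Mmp12 belong to a cluster of 10 MMP genes on rat chromosome 8, and the stretch before the gene start is shown for both of them and for Mmp13 and Mmp8, the other cluster genes with enough reads to be tested. The sequences are from RefSeq, build GRCr8, on the + strand, and cover bases -110 to -20 from the gene start of that table. Capitals mark the letters TGANTCA, with any base in the middle, used here for the motif to which AP-1 binds. It was searched for on both strands and reads the same on each apart from its middle base.
Mmp3, chr8:12925171-12925261: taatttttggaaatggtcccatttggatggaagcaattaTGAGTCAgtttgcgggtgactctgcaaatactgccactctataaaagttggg
Mmp12, chr8:12866542-12866632: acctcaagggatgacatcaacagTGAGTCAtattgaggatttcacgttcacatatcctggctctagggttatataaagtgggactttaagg
Mmp13, chr8:12782719-12782809: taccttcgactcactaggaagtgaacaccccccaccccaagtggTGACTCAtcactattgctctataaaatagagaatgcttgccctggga
Mmp8, chr8:13008780-13008870: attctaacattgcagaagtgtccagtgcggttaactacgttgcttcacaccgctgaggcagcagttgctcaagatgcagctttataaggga

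The motif lay at bases -71 to -65 in Mmp3, -87 to -81 in Mmp12 and -66 to -60 in Mmp13, and was not among the 250 bases before the start of Mmp8. Of the 10 cluster genes, 7 had it within 250 bases before the start, against 6.34% of the 33469 rat promoters of the same length. These 7 included 4 of the 6 cluster genes whose reads were too few to be tested. Among those 4, Mmp20 matched only as TGAATCA. In the other cluster genes with a match, the middle base of the match nearest the start was G or C. The motif was therefore found before cluster genes with and without measurable RNA, and its presence is a description of the sequence only. Promoters of 6 of the 10 MMP and TIMP genes were matched, namely Mmp3, Mmp12 and the 4 TIMPs. Those of Mmp2, Mmp9, Mmp14 and Mmp19 were not. None of the 4 TIMP promoters held these exact letters, beside 6.34% of all rat promoters, so the MMPs and TIMPs cannot be compared in this. Near matches were not searched for, and the Timp1 promoter holds TGAGTAA.

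Among these 10 genes, Timp3, Timp2 and Timp4 were the most abundant transcripts in Normal striatum. Per gene length, Timp3 was highest at 74.5 ± 9.53 TPM (SD, n = 2), followed by Timp2 at 21.98 ± 5.75 and Timp4 at 11.7 ± 1.51. Mmp14 stood at 9.04 ± 0.266 TPM, Mmp2 at 3.61 ± 0.766, Timp1 at 3.32 ± 0.904 and Mmp19 at 1.41 ± 0.170. Mmp2 and Timp1 did not differ beyond their spread in that order. Mmp9, Mmp3 and Mmp12 were near the limit of detection, with 10, 2 and 1 reads summed over both Normal rats. Of the MMP genes outside these 10, Mmp17, Mmp15 and Mmp24 averaged 55.8, 33.9 and 29.6 TPM in Normal, above Timp2. In IS, Timp1 was first of the 10 genes at 372 ± 48.7 TPM (n = 3), followed by Mmp14 at 70.1 ± 17.99. Timp2, Timp3 and Mmp19 followed with means of 35.3, 34.3 and 33.3 TPM, which lay within their spread of each other.

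**Figure D1:**
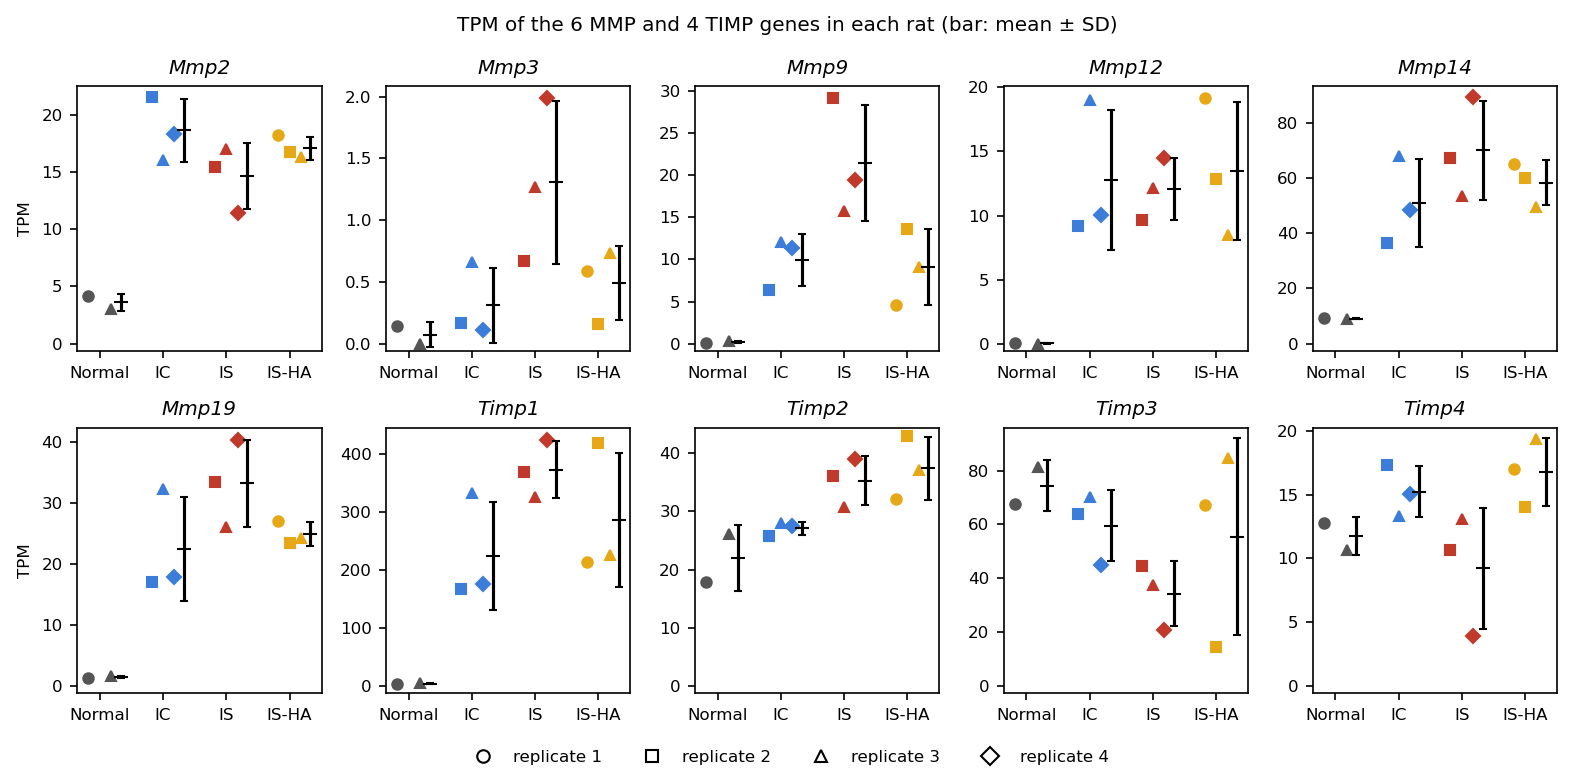
TPM of each MMP and TIMP gene (vertical axes, linear, scaled to each gene) in every rat of the 4 groups (horizontal axes). Points are rats, with a shape for each replicate number, and the bar beside them is the mean with the SD (n = 2 for Normal, 3 for the others). Timp1, Mmp9, Mmp12, Mmp14, Mmp19 and Mmp2 had every hemorrhage rat above both Normal rats. The share of all genes separated from Normal in this way was not counted, here or for the single genes described below. Timp3 was lowest in IS-HA replicate 2 at 14.2 TPM and IS replicate 4 at 20.8 TPM.

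After hemorrhage, 6 of the 10 genes rose in all 3 hemorrhage groups against Normal, namely Timp1 and 5 of the 6 MMPs. Timp2 rose in IS and IS-HA, and Mmp3 rose in IS. In IC, 6 genes were higher and 0 lower, beside 13.0% of all genes tested called higher and 4.64% lower. In IS, 8 were higher and 0 lower, beside 24.8% and 24.2%, and the 8 include Mmp3, which the filter on low counts kept only through IS rats. In IS-HA, 7 were higher and 0 lower, beside 19.5% and 12.1%. The median log2 fold change over the 10 genes was 2.37 in IC, 3.48 in IS and 2.64 in IS-HA, whereas the median over all genes tested was between 0.00335 and 0.0557. These calls are edgeR quasi-likelihood tests at an adjusted p under 0.05, and the 3 comparisons share the same 2 Normal rats. Without IS replicate 4, 6 genes were called higher in IS, since Timp2 did not pass and Mmp3 had too few reads to be kept. Without IS-HA replicate 2, the 3 counts of higher genes were 6, 8 and 6.

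Timp1 (ENSRNOG00000010208), a secreted inhibitor induced by cytokines in glia and other cells, had the largest rise among the inhibitors. Its level was 2.68 and 3.96 TPM in the Normal rats, 166, 331 and 175 in IC replicates 2, 3 and 4, 368, 326 and 423 in IS replicates 2, 3 and 4, and 213, 418 and 225 in IS-HA replicates 1, 2 and 3. Every hemorrhage rat was far above both Normal rats, and among the hemorrhage groups the high IC rat and the high IS-HA rat reached the IS range. The log2 fold change against Normal was 6.004 in IC (SE 0.57, adjusted p = 0.000126), 6.83 in IS (SE 0.59, adjusted p = 3.57e-05) and 6.48 in IS-HA (SE 0.58, adjusted p = 7.96e-05). By TPM it moved from rank 12233 or lower among all genes in Normal to ranks 266 to 342 in IS. The group means were ordered IS, IS-HA, IC and Normal, and the neighbours IS and IS-HA, and IS-HA and IC, did not differ beyond their spread.

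Mmp12 (ENSRNOG00000030187), known as macrophage elastase, was nearly absent from Normal striatum. It had 1 and 0 reads in the Normal rats, and levels of 9.19, 19.0 and 10.1 TPM in IC, 9.64, 12.2 and 14.5 in IS, and 19.1, 12.9 and 8.45 in IS-HA. The 3 hemorrhage groups overlapped with each other and none overlapped with Normal. Since Normal held 1 read in all, its change is given as a ratio of summed reads scaled to library size, with an exact 95% interval for counting error. The ratio was 438 (78.3 to 17326) in IC, 402 (71.6 to 15920) in IS and 470 (83.8 to 18593) in IS-HA. The edgeR test passed in all 3 comparisons (adjusted p = 0.000147, 5.78e-05 and 9.67e-05).

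Mmp9 (ENSRNOG00000017539), gelatinase B, which neutrophils store in granules and other cells make on demand, stood at 0.127 and 0.302 TPM in the Normal rats. It reached 6.38, 12.0 and 11.3 TPM in IC replicates 2, 3 and 4, 29.1, 15.7 and 19.5 in IS replicates 2, 3 and 4, and 4.57, 13.6 and 9.04 in IS-HA replicates 1, 2 and 3. All IS rats were above all IC and all IS-HA rats on this scale, and IC and IS-HA overlapped. In normalized CPM all IS rats were also above all IC rats, beside 19.2% of all genes. There IS and IS-HA overlapped, with IS-HA replicate 2 at 22.6 and IS replicate 3 at 22.5. Against Normal the log2 fold change was 5.45 in IC (SE 0.72, adjusted p = 0.000621), 6.61 in IS (SE 0.74, adjusted p = 0.000102) and 5.40 in IS-HA (SE 0.72, adjusted p = 0.000482).

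Neutrophil markers are set beside Mmp9 here. The 9 markers summed to 5.03 and 5.16 TPM in Normal, 81.7 to 256 in IC, 497 to 693 in IS and 161 to 857 in IS-HA, and the 5 that could be tested were higher in each hemorrhage group than in Normal. IS-HA replicate 2, the highest IS-HA rat for Mmp9, had the highest sum of all rats, which rests on S100a8 at 542 TPM. The other 4 tested markers were each higher in at least 1 IS rat, and Cxcr2, at 1.84 TPM in IS-HA replicate 2, was 3.58 to 6.02 TPM in the IS rats. Ltf was at 0 in every rat and Mpo in most of them, and most of the sum after hemorrhage was S100a8 and S100a9. Ngp did not share the order of the sum, with means of 1.07 TPM in IC, 0.687 in IS and 0.414 in IS-HA. Camp, with no more than 20 reads in any rat, was too rare to be tested. By TPM, the Mmp9 of IS-HA replicate 2, at 13.6, was below that of every IS rat. The part of neutrophils in the Mmp9 result was not tested.

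Mmp19 (ENSRNOG00000006778), a secreted MMP with basement membrane substrates, had levels of 1.29 and 1.54 TPM in Normal, 17.0, 32.4 and 17.9 in IC, 33.4, 26.0 and 40.3 in IS, and 27.1, 23.4 and 24.3 in IS-HA. Only IC replicate 3 among the IC rats lay inside the IS range. Its log2 fold change against Normal was 3.92 in IC (SE 0.36, adjusted p = 0.000115), 4.57 in IS (SE 0.36, adjusted p = 3.13e-05) and 4.13 in IS-HA (SE 0.36, adjusted p = 7.02e-05).

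Mmp14 (ENSRNOG00000010947) is anchored in the cell membrane and, with Timp2 as a bridge, activates the proenzyme of Mmp2. It stood at 9.23 and 8.85 TPM in Normal, 36.3, 68.1 and 48.5 in IC, 67.3, 53.7 and 89.3 in IS, and 65.3, 60.2 and 49.4 in IS-HA. The hemorrhage groups overlapped, and IC replicate 3 and IS replicate 4 were the high rats of their groups. The log2 fold change against Normal was 2.43 in IC (SE 0.34, adjusted p = 0.00079), 2.98 in IS (SE 0.35, adjusted p = 0.000129) and 2.69 in IS-HA (SE 0.34, adjusted p = 0.000364).

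Mmp2 (ENSRNOG00000016695), gelatinase A, rose to a similar level in every hemorrhage group. It stood at 4.15 and 3.07 TPM in Normal, 21.6, 16.1 and 18.3 in IC, 15.5, 17.1 and 11.5 in IS, and 18.2, 16.7 and 16.3 in IS-HA. Its order differed from that of Mmp9, with the IC mean above the IS-HA and IS means, although these groups overlapped. The log2 fold change against Normal was 2.30 in IC, 2.02 in IS and 2.23 in IS-HA (SE 0.27 in each, adjusted p = 0.000319, 0.000265 and 0.000286).

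Mmp3 (ENSRNOG00000032626), stromelysin-1, which cleaves many matrix proteins and other proenzymes, remained a rare transcript. It had 2 and 0 reads in the Normal rats, 2, 10 and 1 in IC replicates 2, 3 and 4, 6, 12 and 13 in IS replicates 2, 3 and 4, and 7, 1 and 6 in IS-HA replicates 1, 2 and 3. The filter on low counts kept Mmp3 only through IS replicates 3 and 4, so the group where it was highest also admitted it to the test. Its IS result is therefore a description only. Against Normal it passed the test in IS (adjusted p = 0.0106), with a ratio of summed reads scaled to library size of 19.0 (exact 95% interval 4.83 to 164). The ratio was 5.25 (1.19 to 47.9) in IC and 7.86 (1.81 to 71.3) in IS-HA, where it did not pass (adjusted p = 0.249 and 0.104). These intervals cover counting error only and not the spread between rats, and most IC reads came from replicate 3. Without Normal replicate 3, the rat with 0 reads, the IS call was lost (adjusted p = 0.0910).

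**Figure D2:**
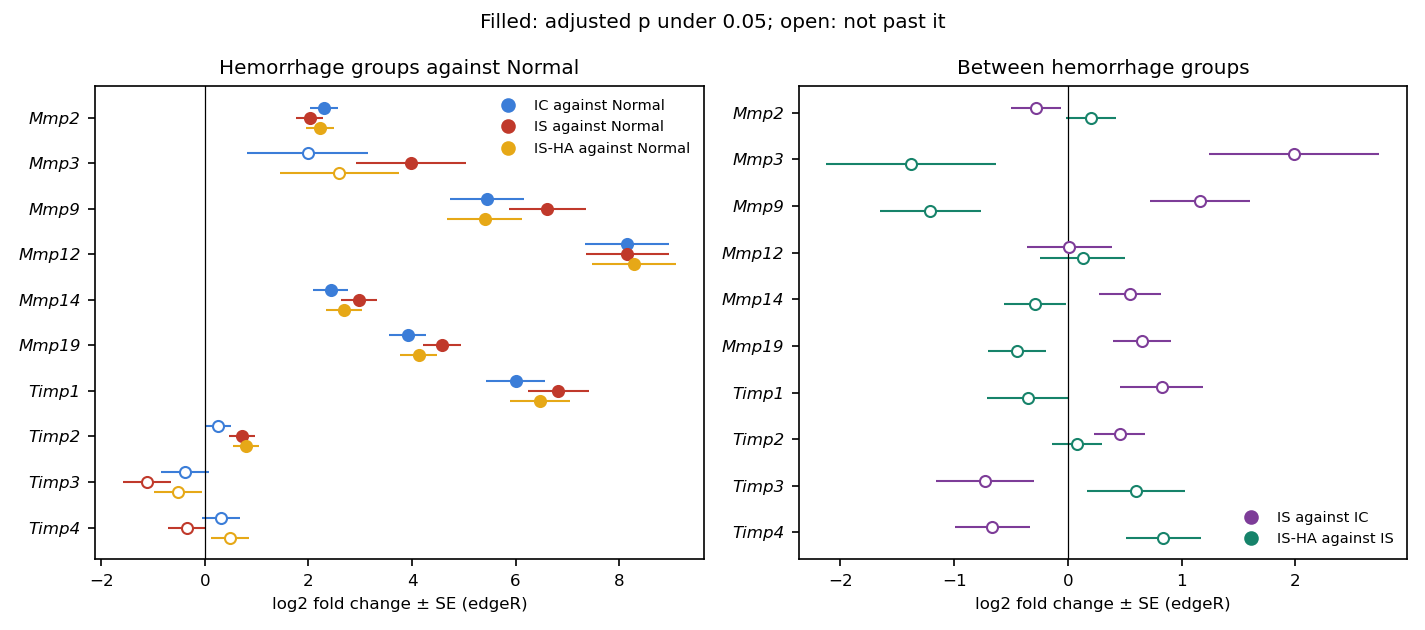
Log2 fold change with its standard error (horizontal axes) of each gene, from edgeR's quasi-likelihood fit over the 11 rats. The left panel sets each hemorrhage group against Normal and the right panel compares hemorrhage groups with each other, and filled points had an adjusted p under 0.05. All filled points are in the left panel and above 0, and Timp3 in IS is the lowest point there at -1.11.

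The other 3 inhibitors changed far less against Normal than Timp1, and of them only Timp2 was called higher. Timp2 (ENSRNOG00000033143), which both blocks MMPs and takes part in activating Mmp2, stood at 17.9 and 26.1 TPM in Normal, 25.8, 27.9 and 27.5 in IC, 36.0, 30.8 and 39.0 in IS, and 32.1, 43.0 and 37.1 in IS-HA. Both IS and IS-HA lay wholly above Normal, whereas IC overlapped with it. Timp2 rose in IS by a log2 fold change of 0.71 (SE 0.25, adjusted p = 0.0367) and in IS-HA by 0.80 (SE 0.25, adjusted p = 0.0355), and had 0.26 in IC (adjusted p = 0.491). Both calls were close to the threshold. That in IS was lost without either Normal rat, IS replicate 2 or IS replicate 4 (0.52 to 0.93, adjusted p = 0.0544 to 0.228). That in IS-HA was lost without either Normal rat, IC replicate 4, IS replicate 3 or IS-HA replicate 2 (0.53 to 1.01, adjusted p = 0.0501 to 0.207), and in the fit of only the groups compared (0.78, adjusted p = 0.118).

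Timp3 (ENSRNOG00000004303), the inhibitor that stays bound to the extracellular matrix, was the only one of the 10 genes with a negative log2 fold change against Normal in all 3 groups, and none of them passed the test. Its level was 67.7 and 81.2 TPM in Normal, 63.8, 70.3 and 44.8 in IC, 44.7, 37.5 and 20.8 in IS, and 67.1, 14.2 and 84.7 in IS-HA. All IS rats lay below all Normal and IC rats, while IS-HA held both the highest and the lowest of the 11 values. The log2 fold change against Normal was -0.38 in IC (SE 0.47, adjusted p = 0.594), -1.11 in IS (SE 0.47, adjusted p = 0.0691) and -0.51 in IS-HA (SE 0.47, adjusted p = 0.410). Without IS-HA replicate 2 the IS value was unchanged at -1.11 and passed the test (adjusted p = 0.00261), beside 29.2% of all genes called lower in that fit.

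Timp4 (ENSRNOG00000007955), the inhibitor with the most restricted tissue distribution, was called in no comparison. It stood at 12.8 and 10.7 TPM in Normal, 17.3, 13.3 and 15.04 in IC, 10.7, 13.1 and 3.89 in IS, and 17.0, 14.0 and 19.3 in IS-HA. IS replicate 4 was the lowest rat. In the same rat the 6 general neuron markers (350 TPM), the striatal neuron markers (1353) and the oligodendrocyte markers (5782) also had their lowest sums. The general neuron markers had their highest sums in Normal, at 2326 and 3223 TPM, where Timp4 was not highest. The part of that library's make-up in the Timp4 value was not tested. Against Normal the log2 fold change was 0.31 in IC, -0.35 in IS and 0.49 in IS-HA (adjusted p = 0.572, 0.441 and 0.317).

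The make-up of the inhibitor transcripts differed between Normal and hemorrhage. In Normal, Timp3 accounted for 66.8% ± 0.244 (SD, n = 2) of the summed TPM of the 4 TIMP genes and Timp1 for 2.95% ± 0.423. Timp1 accounted for 67.4% ± 7.002 in IC, 82.4% ± 3.95 in IS and 70.5% ± 13.0 in IS-HA (n = 3 each), and Timp3 for 18.8% ± 4.01, 7.73% ± 3.01 and 15.5% ± 10.96. All hemorrhage rats had a Timp1 share of at least 60.9%, and the 2 Normal rats had no more than 3.25%. TPM divides by gene length, and the length implied for Timp2 by the deposited counts and TPM is 14.9 times that of Timp1. By read counts, Timp2 therefore held the largest share in every group, between 50.8% and 62.2%, and Timp1 held 0.630% in Normal, 27.2% in IC, 37.1% in IS and 27.6% in IS-HA.

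**Figure D3:**
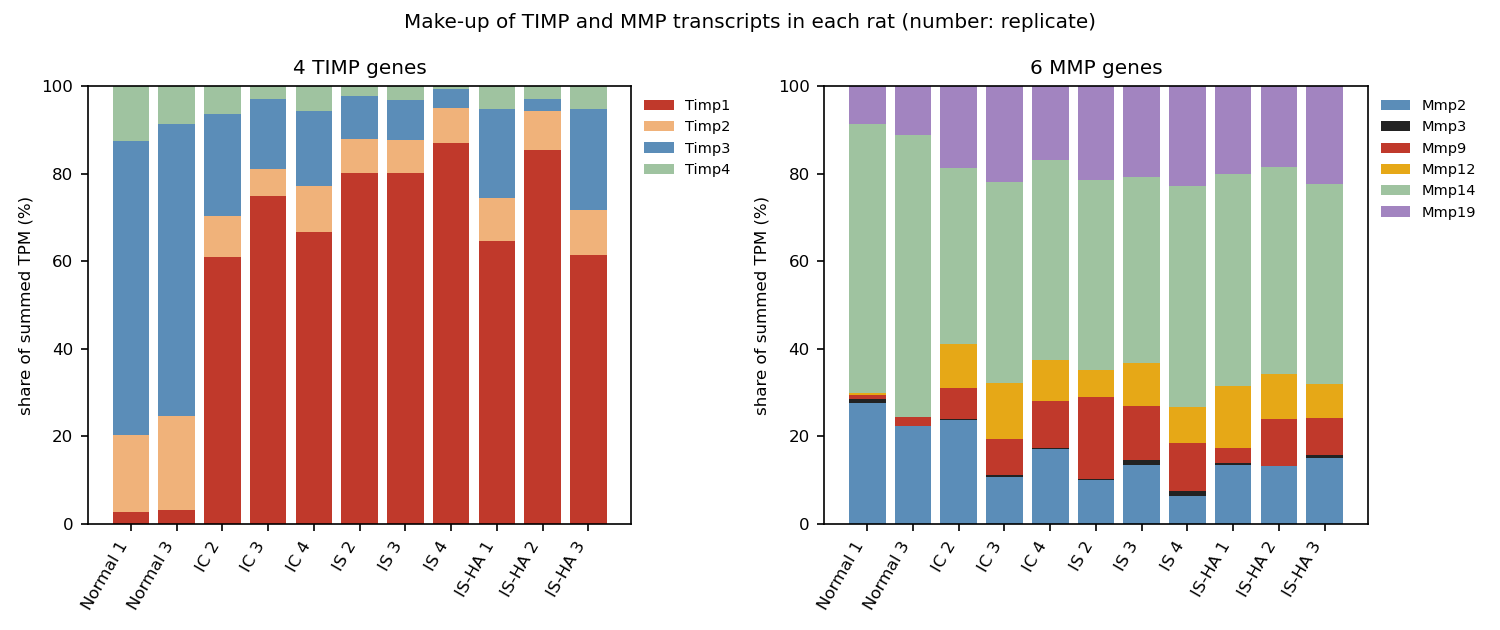
Share of each gene in the summed TPM (vertical axes, percent) of the 4 TIMP genes (left) and the 6 MMP genes (right) in each of the 11 rats (horizontal axes, group and replicate number). Timp3 makes up 66.6% and 67.0% of the left bars in Normal and Timp1 60.9% to 86.9% in the hemorrhage rats, and Mmp14 is the largest part of every bar on the right.

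Mmp14 remained the most abundant of the 6 MMPs, at 62.9% ± 2.02 of their summed TPM in Normal and 43.9% to 47.2% on average in the hemorrhage groups. The share of Mmp2 was 24.98% ± 3.79 in Normal and 9.98% ± 3.54 in IS, and that of Mmp9 was 1.52% ± 0.956 and 14.1% ± 4.09. The summed TPM of these 6 MMPs was 14.4 ± 0.885 in Normal, 115 ± 29.8 in IC, 153 ± 25.7 in IS and 123 ± 13.6 in IS-HA. That of the TIMPs was 112 ± 14.7, 326 ± 101, 451 ± 40.3 and 395 ± 84.1 in the same order. The ratio of the transcripts of these 6 MMPs to those of the TIMPs went from 0.131 ± 0.0251 in Normal to 0.357 ± 0.0415 in IC, 0.337 ± 0.0274 in IS and 0.321 ± 0.0787 in IS-HA. All 9 hemorrhage rats were above both Normal rats, and the 3 hemorrhage groups overlapped. This ratio does not describe MMP transcripts as a whole, since it leaves out other MMP genes that were abundant in Normal. From Normal to IS, the mean of Mmp17 went from 55.8 to 17.5 TPM and that of Mmp24 from 29.6 to 13.0. That of Mmp15 went from 33.9 to 55.3 TPM. The number of Timp1 transcripts per Mmp9 transcript was 13.1 and 21.2 in Normal, which rests on 7 and 3 Mmp9 reads, 15.4 to 27.5 in IC, 12.6 to 21.7 in IS and 24.9 to 46.6 in IS-HA. IS-HA overlapped with IC, and IC overlapped with IS and Normal.

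The comparison of IS with IC asks whether the genes followed the severity of the hemorrhage. None of the 10 genes passed the test, and 0 of the 15742 genes tested by edgeR were called in either direction, against 1653 higher and 1845 lower at an unadjusted p under 0.05, and 470 higher and 507 lower by the Wald test of DESeq2. The largest log2 fold changes were 1.99 for Mmp3 (SE 0.75, adjusted p = 0.180), 1.16 for Mmp9 (SE 0.44, adjusted p = 0.181) and 0.82 for Timp1 (SE 0.36, adjusted p = 0.217). Mmp19 had 0.65, Mmp14 0.54, Timp2 0.45, Mmp12 0.01 and Mmp2 -0.28, while Timp3 had -0.73 and Timp4 -0.66. In normalized CPM, every IS rat was above every IC rat for Mmp3, Mmp9, Timp1 and Timp2, beside 19.2% of all genes, and below for Timp3, beside 18.7%. Of these, Mmp3 was kept by the filter on low counts only through IS rats. Without IS-HA replicate 2, a rat of neither group, the log2 fold changes were the same and Mmp9 (1.16, adjusted p = 0.0431) and Timp1 (0.82, adjusted p = 0.0440) passed the test, beside 6.38% of all genes called higher and 7.71% lower. That library enters this comparison through the normalization, the filter on low counts, which kept 15897 genes without it, and the spread, all shared by the 4 groups. Without IS replicate 4 none of the 10 genes was called between IS and IC, and the value of Timp4 was -0.33 in place of -0.66.

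The comparison of IS-HA with IS asks what aspiration of the hematoma left changed at day 3. None of the 10 genes passed the test, beside 0.00635% of all genes called higher and 0% called lower by edgeR. At an unadjusted p under 0.05, 879 genes were higher and 529 lower, and the Wald test of DESeq2 called 49 and 22. Mmp9 had a log2 fold change of -1.21 (SE 0.44, adjusted p = 0.540), Mmp3 -1.38 (SE 0.75, adjusted p = 0.575), Mmp19 -0.45 (SE 0.25, adjusted p = 0.593) and Timp1 -0.35 (SE 0.36, adjusted p = 0.769). Timp4 had 0.84 (SE 0.33, adjusted p = 0.544) and Timp3 0.60 (SE 0.43, adjusted p = 0.658), whereas Mmp2, Mmp12, Mmp14 and Timp2 lay between -0.29 and 0.20. In normalized CPM every IS-HA rat was above every IS rat for Timp4, beside 4.96% of all genes, and for none of the 10 genes was every IS-HA rat below, beside 5.42%.

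IS-HA replicate 2 decided several of these values. Without it, Mmp9 was lower in IS-HA than in IS (log2 fold change -1.81, adjusted p = 0.0409), beside 0.975% of all genes called lower, and Timp3 was higher (1.00, adjusted p = 0.0472), beside 3.40% called higher. Timp1 moved to -0.92 (adjusted p = 0.0650) and Timp2 changed sign to -0.18 (adjusted p = 0.503). That rat had the highest Timp1 and Mmp9 of its group and the lowest Timp3 of all rats, together with the highest summed neutrophil markers at 857 TPM, for which S100a8 but not Cxcr2 stood highest, and the lowest summed pericyte and fibroblast markers at 161 TPM. The comparison without it rests on 2 IS-HA rats. The part of that library's make-up in these values was not tested. Without IS replicate 4, none of the 10 genes was called between IS-HA and IS, and Timp4 had 0.50 in place of 0.84.

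**Figure D4:**
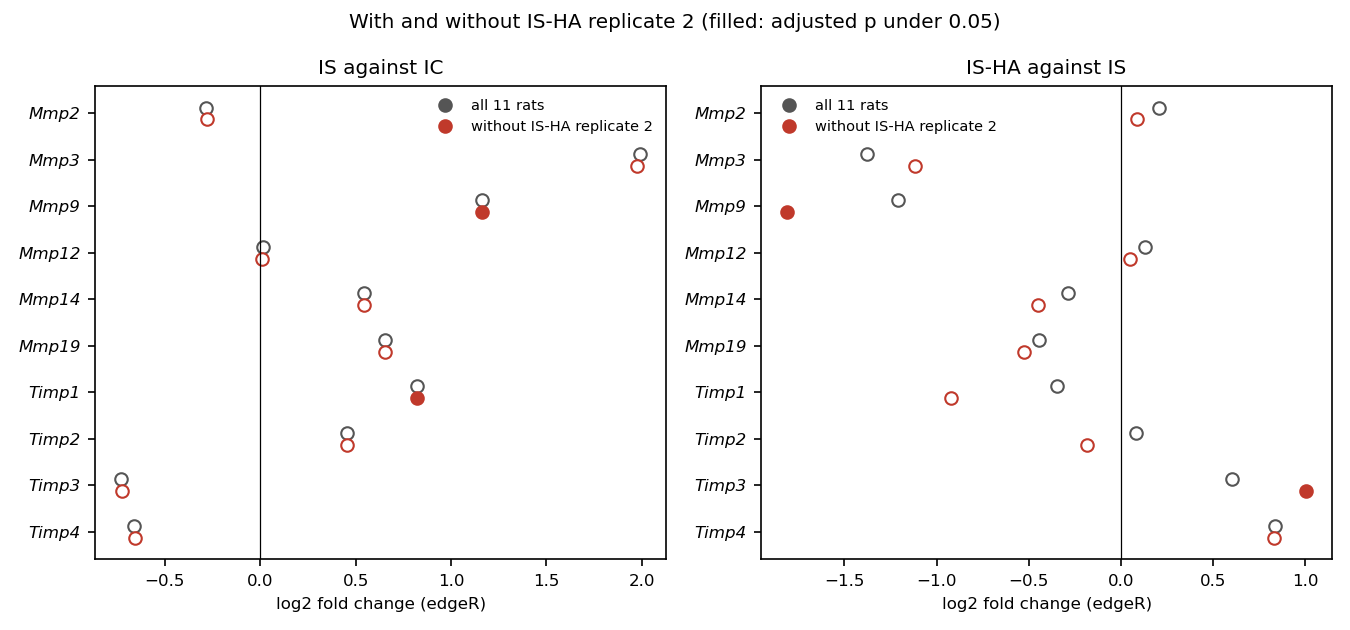
Log2 fold change (horizontal axes) of each gene for IS against IC (left) and IS-HA against IS (right), from edgeR fits with all 11 rats and without IS-HA replicate 2, with filled points where the adjusted p was under 0.05. Mmp9 and Timp1 are filled on the left and Mmp9 at -1.81 and Timp3 at 1.00 on the right, only without that rat. The Mmp2, Mmp12 and Timp4 points lie close together in both fits.

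The chromosome 8 cluster showed unequal levels among neighbouring genes. Mmp12 and Mmp8, the collagenase of neutrophils, reached several TPM in every hemorrhage rat, Mmp3 and Mmp13 stayed at or below 1.99 TPM, and the other 6 genes had between 0 and 35 reads summed over all 11 rats. Mmp8 had 1 and 0 reads in the Normal rats, and 4.29 to 12.9 TPM in IC, 6.77 to 12.9 in IS and 2.86 to 9.23 in IS-HA. It passed the test against Normal in all 3 groups (adjusted p = 0.000819, 0.000375 and 0.00104). Mmp13, a collagenase, had 1 and 0 reads in Normal, 0, 4 and 1 in IC, 12, 15 and 6 in IS, and 8, 4 and 3 in IS-HA, and passed the test in IS (adjusted p = 0.00319) and IS-HA (adjusted p = 0.0306) but not in IC (adjusted p = 0.412). The IS rats were above the IC rats for Mmp13 without overlap, and that difference did not pass the test (adjusted p = 0.143). In normalized CPM, 19.2% of all genes had every IS rat above every IC rat. The filter on low counts kept Mmp13 only through IS replicates 2 and 3, so the group where it was highest also admitted it to the test.

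**Figure D5:**
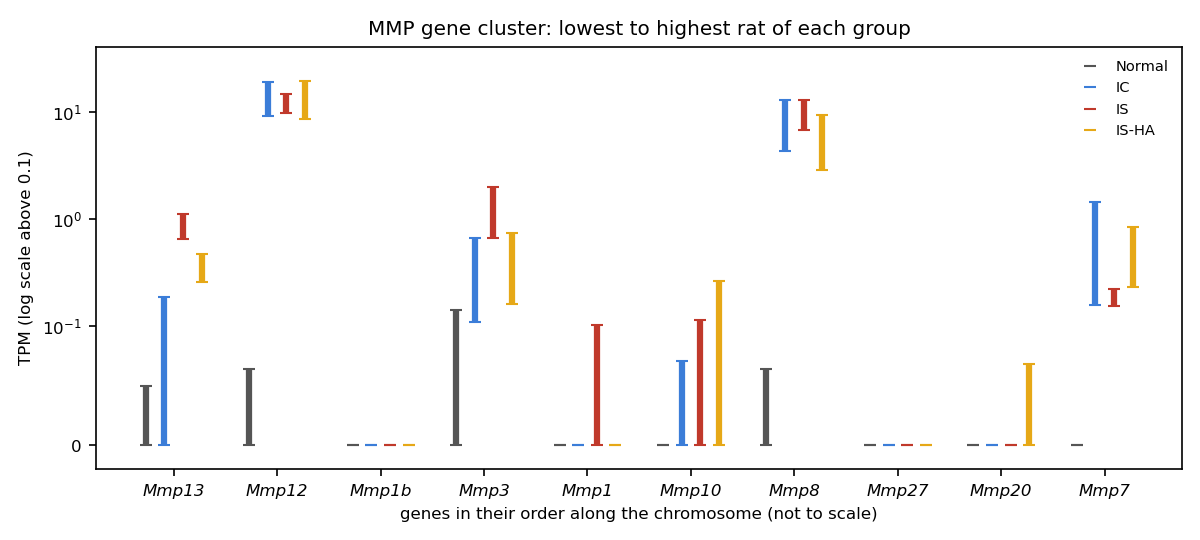
TPM (vertical axis, log scale above 0.1 and linear below) of the 10 genes of the MMP cluster in their order along the chromosome (horizontal axis, not to scale), with a bar from the lowest to the highest rat of each group. Mmp12 and Mmp8 lie between 2.86 and 19.1 TPM in the hemorrhage groups, and Mmp1b and Mmp27 are at 0 in every rat.

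Genes that act with the MMPs and TIMPs were read as lists, to be set beside the 13.0%, 24.8% and 19.5% of all genes called higher in IC, IS and IS-HA against Normal and the 4.64%, 24.2% and 12.1% called lower. Of the activators and inducers of MMPs, 7 of 9 tested were higher and 0 lower in each hemorrhage group against Normal, where 13.0% to 24.8% of all genes were higher. In IS these included Lcn2, a lipocalin that binds Mmp9 (log2 fold change 7.42, adjusted p = 3.13e-05), Plau, the urokinase plasminogen activator (6.94, adjusted p = 3.57e-05), and the cytokine Il1b (5.56, adjusted p = 0.000542). Of 6 other inhibitors and clearance receptors tested, 3 were higher in each hemorrhage group. They included Tfpi2, a serine protease inhibitor (log2 fold change 4.00 in IS, adjusted p = 0.000391), and the broad protease trap A2m (3.51, adjusted p = 0.000372).

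Of 8 ADAM sheddases tested, 4 were higher in IC, 6 in IS and 4 in IS-HA, beside the 13.0%, 24.8% and 19.5% of all genes, with Adam8 at a log2 fold change of 4.88 in IS (adjusted p = 0.000173), Adam33 at 3.62 (adjusted p = 0.0105) and Adam15 at 2.12 (adjusted p = 9.95e-05). Of the 17 ADAMTS proteases tested, 6 were higher and 5 lower in IS, near the 24.8% and 24.2% of all genes, 4 and 0 in IC, and 5 and 2 in IS-HA. Adamts8 (3.77) and Adamts7 (3.34) rose in IS, and Adamts3, which processes procollagen, fell to a log2 fold change of -2.69 (adjusted p = 0.00192). Of the 10 other MMP genes tested, 5 were higher and 2 lower in both IS and IS-HA, and 3 and 1 in IC, with the lower share in IS near that of all genes at 24.2%. The higher genes in IS included Mmp25 (2.86, adjusted p = 0.000795).

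Among substrates, 9 of 13 basement membrane genes were higher in IS, beside 24.8% of all genes, and 1, Agrn, was lower, with Fn1, which encodes fibronectin, at 3.32, Col4a1, a chain of type IV collagen, at 2.62 and Hspg2, which encodes perlecan, at 2.23. In IC 6 were higher and 0 lower, and in IS-HA 6 and 1. None of the 3 tight junction genes, Cldn5, Ocln and Tjp1, passed the test in any comparison. No gene of these lists was called between IS and IC or between IS-HA and IS.

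The genes whose normalized levels were most like those of each member were sought over the 9 hemorrhage rats, among 12572 genes, by Pearson r as a description. These rats share their group differences and library effects, so that high values arise readily. Timp1 was nearest to Selenoh, H2az1 and Lpcat1 (highest r 0.992), Timp3 to Fam217b, Snx29 and Trim39 (0.991), and Timp4 to Mapt, Gls2 and a gene without a symbol (0.986). Timp2 was nearest to Hpcal1, Rfc5 and Hint1 (0.985), Mmp14 to Ccdc43, Dnm2 and Arfip1 (0.980), and Mmp19 to Ptpn12, Soat1 and Twf1 (0.975). Mmp2 was nearest to B4galnt1, RGD1559747 and Actl6b (0.974), Mmp3 to Lrrc59, Snx18 and Bcl10 (0.969), and Mmp9 to Fam110d, Castor1 and Lsm1 (0.941). Mmp12 was nearest to Dnai7, Pitrm1 and Erg28, with the lowest such value of the 10 genes at 0.922. No member was among the 3 nearest genes of another.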

How the data were processed

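The authors deposited read counts per gene as whole numbers without normalization, and TPM, which corrects them for gene length and for the total of each rat. Libraries were poly(A)-selected and read as pairs. The submitters' processing notes name fastp 0.20.0, HISAT2 2.1.0, SAMtools 1.9, featureCounts of Subread, DESeq2 and the build mRatBN7.2. Columns were assigned to rats through the library names in the labels, and 0 stayed unassigned. The paper describes biological replicates, with 3 per group, and 2 Normal samples were analysed here.

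Counts of all 11 rats were filtered by filterByExpr, normalized by TMM and tested in 1 quasi-likelihood fit of edgeR 4.0.16 in R 4.3.3 with a mean per group. The Benjamini-Hochberg method was applied to all 15742 genes, with calls at an adjusted p under 0.05. A standard error is an approximation, the size of the log2 fold change over the root of its F value. Levels between genes were compared by TPM. The method was tested on simulated data. Motifs were searched in the RefSeq promoter table of build GRCr8, whose coordinates are not those of the build of the files.

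Alternatives were the size factors and the Wald test of DESeq2 1.42.0, limma 3.58.1 with trend on log2(TPM + 1), no filter, a log2 fold change of at least 1, a fit restricted to the groups compared, fits without each rat, and the replicate number as a block. Named beside the 10 members were up to 3 genes of each list with the largest change in IS against Normal (1 of them is not reported here), the 3 genes most like each member with a mean log2 CPM above 2, and the cluster genes and Agrn, Cldn5, Ocln and Tjp1, added after values were seen. The members and lists were chosen with earlier results of these data known. Figures were made in Python 3.11.15 with matplotlib 3.10.9.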

Additional observations from a re-analysis of the deposited data

How the results depend on the processing

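The calls against Normal of Mmp2, Mmp9, Mmp12, Mmp14, Mmp19 and Timp1 held under every alternative run. Over all alternatives, 852 log2 fold changes of single genes kept their direction and side of the threshold, 15 lost a call, 7 gained one and 12 changed sign. The count of genes lower in IS than in Normal was 1 in place of 0 with the Wald test of DESeq2 and with only the groups compared, and 0 to 1 when a rat was left out. The gene was Timp3 each time. When a rat was left out, genes higher in IS than in IC numbered 0 to 2, and genes higher and lower in IS-HA than in IS 0 to 1 each. By read counts in place of TPM, the Timp1 share of the TIMPs was 0.630% in Normal, 27.2% in IC, 37.1% in IS and 27.6% in IS-HA.

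Same-numbered rats of different groups had correlated deviations of -0.475 to 0.356 over 11 pairs (mean -0.0750), with 2 above 0.1. Rats with different numbers had -0.469 to 0.443 over 34 pairs (mean 0.0249), with 15 above 0.1. In groups this small, deviations of rats of the same group are tied to each other, and the Normal rats gave equal values of opposite sign. Whether the numbers pair the rats therefore could not be decided from these values. With the replicate block, the IC value against Normal changed sign for Timp2 (-0.13) and Timp3 (0.21), and the Timp2 calls were lost in IS (0.31, adjusted p = 0.414) and IS-HA (0.64, adjusted p = 0.0932). Mmp12 in IS-HA against IS was -0.057 with the block and -0.12 to 0.39 when a rat was left out. In IS against IC it was -0.0042 without a filter, -0.019 with limma and -0.19 to 0.37 when a rat was left out. Timp2 in IS-HA against IS ran from -0.18 to 0.24 when a rat was left out and up to 0.33 over all alternatives. Its call in IS-HA against Normal was also lost with only the groups compared (0.78, adjusted p = 0.118). The causes were not tested. Depth limits Mmp3 most, since it was too rare to be kept in several fits that left out a rat.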
